A study of Rattus norvegicus with 18 samples.

Results

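The CDK4/6, D cyclin and Rb family genes were described across 6 treatment groups of rat jejunum. They are the kinases Cdk4 and Cdk6, their activating partners cyclin D1, D2 and D3 (Ccnd1, Ccnd2 and Ccnd3), and the pocket proteins Rb1, p107 (Rbl1) and p130 (Rbl2). Members were the probe sets whose array annotation gave exactly 1 gene symbol equal to 1 of these names, which found 10 probe sets of 31042 non-control probe sets, for 8 genes of 14217. Ccnd1 had 3 probe sets and each of the other 7 genes had 1. All 8 genes entered every test, and 7 of them, all but Cdk6, passed a filter at the 30th percentile of mean signal over all genes.

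The study compared intestinal effects of 3 CDK4/6 inhibitor drugs in male Sprague Dawley rats of 6 to 8 weeks, dosed by mouth once a day. Mucosal scrapings of the jejunum were measured on 18 Affymetrix expression arrays, 3 for each group, lettered A to C in their titles. The groups were abemaciclib at 120 mg/kg/day, abemaciclib at 36 mg/kg/day, ribociclib at 300 mg/kg/day, palbociclib at 100 mg/kg/day, palbociclib at 30 mg/kg/day, and vehicle. They are called abemaciclib 120, abemaciclib 36, ribociclib 300, palbociclib 100, palbociclib 30 and vehicle here. The vehicle rats received 0.5% methyl cellulose, which was also the carrier of palbociclib. Abemaciclib and ribociclib were instead dissolved in hydroxypropyl methylcellulose with tween 80 in a citrate buffer, so compound and carrier cannot be told apart when they are set against vehicle or palbociclib. The study dosed 10 rats per group over 4 or 15 days. Neither the dosing time of an array nor the animal behind it is given in the labels, so p-values here rest on the spread among arrays, which may be technical. One array of the abemaciclib 120 group, replicate B, is titled with a dose of 100 while its treatment label says 120.

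CDK4 and CDK6 become active when a D cyclin binds them, and the complex then phosphorylates RB1 and its relatives p107 and p130. Unphosphorylated pocket proteins hold E2F transcription factors in check, and their phosphorylation frees E2F to switch on genes of DNA replication. In the small intestine, division is confined to the crypts, where D cyclin genes respond to growth factor and Wnt signals, while the cells of the villus have left the cell cycle. The drugs occupy the ATP site of the kinases and act on protein activity. All 3 carry a pyridinylamine side chain with a piperazine. Palbociclib and ribociclib also share a cyclopentyl group on a fused pyrimidine core, which abemaciclib, a pyrimidine joined to a benzimidazole, lacks.

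The bases upstream of a pair of the genes are shown because Cdk4 and Rbl1 are among the members that differed between groups and their promoters hold short words tied to regulators of this pathway. Sequences are from RefSeq on the GRCr8 rat assembly, cover the 250 bases before the annotated start of the gene, and were found for 5 of the 8 members (Cdk4, Ccnd3, Rb1, Rbl1 and Rbl2). Capitals in the Cdk4 sequence mark the E-box CACGTG, a word that reads the same on both strands and that MYC with its partner MAX can bind. Capitals in the Rbl1 sequence mark TTTCGCGC, a word of the kind that E2F proteins bind. The Cdk4 bases lie at chr7:64771203-64771452 on the plus strand and the Rbl1 bases at chr3:166289377-166289626 on the minus strand.
Cdk4: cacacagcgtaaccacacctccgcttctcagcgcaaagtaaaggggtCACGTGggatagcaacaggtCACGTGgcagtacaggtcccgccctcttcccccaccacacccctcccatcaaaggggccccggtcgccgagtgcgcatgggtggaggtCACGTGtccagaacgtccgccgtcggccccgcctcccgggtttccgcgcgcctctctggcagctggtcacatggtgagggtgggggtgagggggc
Rbl1: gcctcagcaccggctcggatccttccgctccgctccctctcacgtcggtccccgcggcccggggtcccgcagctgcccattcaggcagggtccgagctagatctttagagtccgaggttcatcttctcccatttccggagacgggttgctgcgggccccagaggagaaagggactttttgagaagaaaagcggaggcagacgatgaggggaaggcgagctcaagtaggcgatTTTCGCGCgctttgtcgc
The E-boxes of Cdk4 begin 203, 183 and 95 bases before its start. At least 1 E-box lies in the same stretch of 5.59% of 33469 rat promoters, and 3 or more in 17 of them (0.0508%). The E2F word of Rbl1 begins 18 bases before its start. The E2F search covered TTTCGCGC, TTTCCCGC, TTTGGCGC and TTTGCCGC on both strands, and 1.73% of the promoters held at least 1 of these in the 250 bases before the start. Neither motif was found before the start of Ccnd3, Rb1 or Rbl2. Rb1 held TTTCCCGC with its first base at position 3, counted from the start of the gene, and 2.14% of promoters held an E2F word when the 50 bases after the start were included. These are matches of letters and were not tested for binding.

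Values below are log2 signals unless a fold is named, and a difference of 1 on that scale is a fold of 2. The words rose and fell are used where the adjusted p was below 0.05 in limma, a linear model fitted over all genes, with 3 arrays in each group. In such tissue RNA, a change in the number of cells of a type and a change in RNA per cell cannot be told apart. Against vehicle, Ccnd1, Ccnd2 and Cdk4 rose and Rb1 fell with abemaciclib 120, and Rbl1 fell with ribociclib 300. No member passed with abemaciclib 36, palbociclib 100 or palbociclib 30.

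The array medians lay between 5.41 and 5.51, and the defining epithelial markers were high in every group, with a mean signal of the 9 enterocyte markers of 12.94 to 13.37 with abemaciclib 120 and 13.42 to 13.54 in vehicle. The abemaciclib 120 means thus lay below all vehicle means, though none of the 9 passed (smallest limma adjusted p = 0.0517, Apoa4). Markers of other cell types and RNA quality also moved with the groups. The mean signal of 6 markers of crypt base and dividing cells lay at 7.36 to 8.13 with abemaciclib 120, where 5 of the 6 rose. It lay at 6.14 to 6.93 with abemaciclib 36 and 5.62 to 6.07 in vehicle. For 11 T and NK cell markers it lay at 5.42 to 6.33 with abemaciclib 120, 7.31 to 7.58 with abemaciclib 36 and 6.47 to 8.25 with ribociclib 300. With palbociclib 100 it lay at 7.18 to 7.97, with palbociclib 30 at 8.37 to 8.92 and in vehicle at 8.54 to 8.93. Of these markers, 9 of the 11 fell with abemaciclib 120 and 4 with ribociclib 300. For 8 macrophage and dendritic cell markers the mean signal lay at 5.12 to 5.77 with abemaciclib 120 and 6.71 to 7.20 in vehicle. With abemaciclib 120, 5 of the 8 fell. The 3′ minus 5′ log2 signal of the beta-actin controls, a measure of RNA degradation, was 0.86 to 1.05 with abemaciclib 120, 0.40 to 0.90 with ribociclib 300 and 0.57 to 0.79 in vehicle. The part of these markers in the results below was not tested. Fits with the actin measure as a covariate are given where they change a call. All abemaciclib 120 arrays lay above those of vehicle, both palbociclib groups and abemaciclib 36 (highest 0.80) on this measure. In comparisons with those groups the covariate fits therefore cannot separate RNA quality from treatment. The share of all genes called was not counted in the covariate fits. Nor was it counted in fits that left out an array, used a replicate block or were restricted to the compared groups. Ribociclib 300 replicate A stood apart within its group, with a mean signal of 6 smooth muscle markers of 7.88, against 6.27 and 6.31 on its group mates. For abemaciclib 120 replicate B this mean was 6.74, against 5.47 and 5.67 on its group mates. Its mean signal of 6 fibroblast markers was 8.12, against 5.01 and 6.14. That fibroblast mean was 8.18 on abemaciclib 36 replicate B, against 6.09 and 7.21, and 8.74 on ribociclib 300 replicate A, against 5.96 and 7.29.

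**Figure D1:**
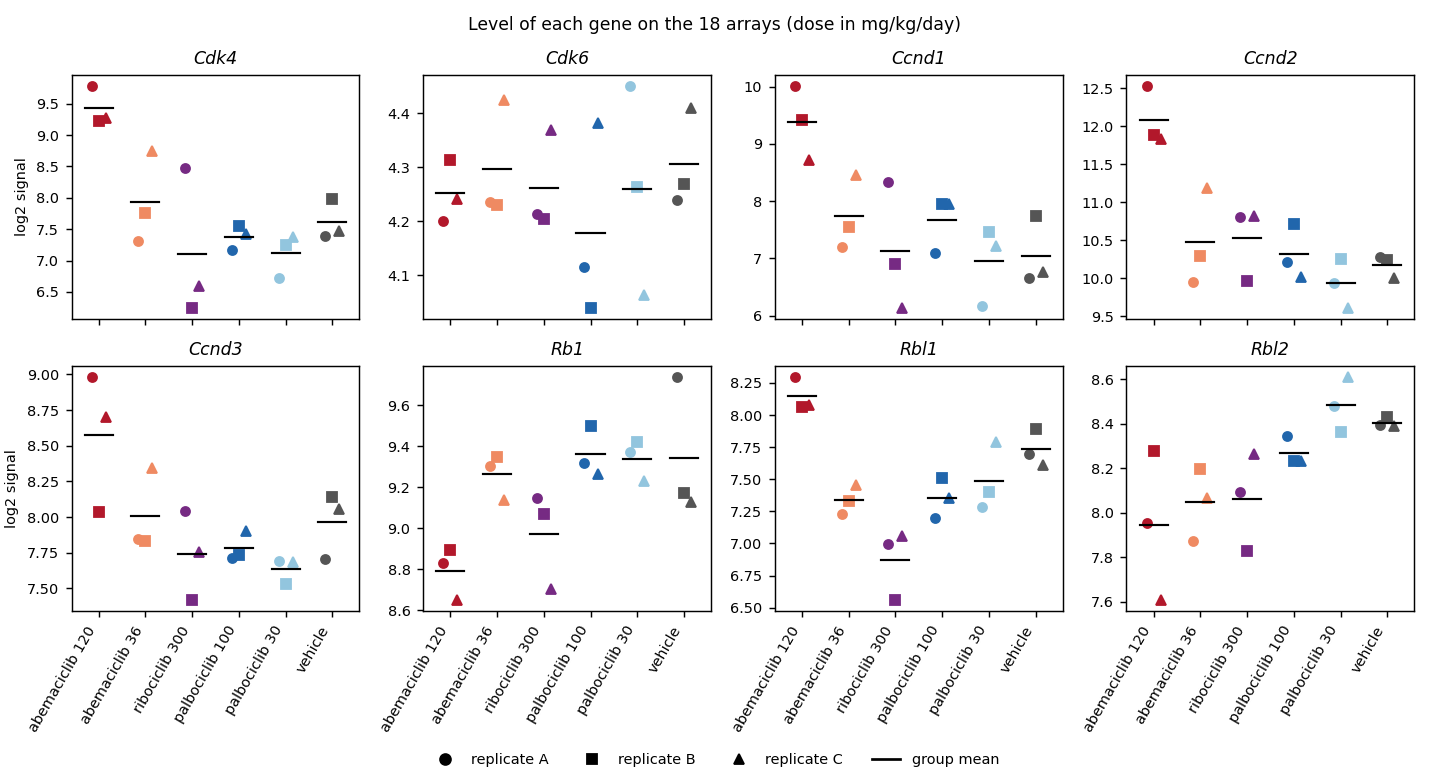
Log2 signal of each gene (vertical axis, scaled per gene) on each of the 18 arrays (points, shaped by replicate letter), with the group mean as a bar. The 3 abemaciclib 120 arrays lie above all other arrays for Cdk4, Ccnd1, Ccnd2 and Rbl1, while Cdk6 varies by only 0.41 over all arrays.

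The D cyclins bring growth signals to the kinases. Cyclin D2 (Ccnd2) showed the clearest separation. Its signals were 12.54, 11.89 and 11.83 with abemaciclib 120 and 9.95, 10.30 and 11.19 with abemaciclib 36. They were 10.80, 9.96 and 10.81 with ribociclib 300, 10.22, 10.72 and 10.02 with palbociclib 100, 9.94, 10.26 and 9.61 with palbociclib 30, and 10.28, 10.24 and 10.00 in vehicle. All 3 abemaciclib 120 arrays lay above every other array of the study, and the highest of the rest was abemaciclib 36 replicate C. Ccnd2 averaged 12.09 ± 0.39 with abemaciclib 120 and 10.17 ± 0.15 in vehicle (SD, n = 3 each), a log2 difference of 1.91 (SE 0.31, 3.76-fold higher, limma adjusted p = 0.000629). The other 4 differences from vehicle lay between -0.24 (palbociclib 30) and 0.35 (ribociclib 300), and none passed the test.

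Cyclin D1 (Ccnd1), the D cyclin best known as a target of Wnt and growth factor signalling, was read by 3 probe sets, and the one with the highest mean signal stands for the gene. It read 10.02, 9.43 and 8.72 with abemaciclib 120 and 7.20, 7.55 and 8.46 with abemaciclib 36. It read 8.33, 6.90 and 6.13 with ribociclib 300, 7.09, 7.96 and 7.95 with palbociclib 100, 6.18, 7.45 and 7.22 with palbociclib 30, and 6.65, 7.73 and 6.76 in vehicle. The abemaciclib 120 arrays again lay above all others, while the remaining groups overlapped with vehicle and the ribociclib 300 arrays spread over more than the vehicle arrays did. Ccnd1 averaged 9.39 ± 0.65 with abemaciclib 120 and 7.05 ± 0.60 in vehicle (SD, n = 3 each). Its log2 difference was 2.34 (SE 0.53, 5.06-fold higher, limma adjusted p = 0.00572). The other probe sets gave 9.63, 8.94 and 8.57 with abemaciclib 120 against 6.55, 7.50 and 6.43 in vehicle, and 9.83, 9.41 and 9.03 with abemaciclib 120 against 6.53, 7.39 and 6.15 in vehicle. With every probe set tested on its own, the 3 differed from vehicle by 2.34 (adjusted p = 0.00846), 2.22 (adjusted p = 0.00913) and 2.74 (adjusted p = 0.00337), so all of them rose, where 11.3% of all probe sets were called. Each pair of Ccnd1 probe sets correlated at 0.98 or 0.99 over the 18 arrays.

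Cyclin D3 (Ccnd3), which is prominent in lymphocytes as well as in epithelium, read 8.98, 8.04 and 8.70 with abemaciclib 120 and 7.85, 7.83 and 8.34 with abemaciclib 36. It read 8.04, 7.42 and 7.75 with ribociclib 300, 7.71, 7.73 and 7.90 with palbociclib 100, 7.69, 7.53 and 7.69 with palbociclib 30, and 7.70, 8.14 and 8.06 in vehicle. A pair of the abemaciclib 120 arrays lay above all vehicle arrays and replicate B lay among them. The difference was 0.61 (95% interval 0.10 to 1.11, adjusted p = 0.095), which did not pass over all arrays. Of the 6 fits that left out 1 array it passed in 1, that without abemaciclib 120 replicate B (0.87, adjusted p = 0.0163), and without abemaciclib 120 replicate A it was 0.40 (adjusted p = 0.388). The other differences from vehicle lay between -0.33 (palbociclib 30) and 0.04 (abemaciclib 36).

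Cdk4, the catalytic partner of the D cyclins, was likewise highest with abemaciclib 120. Its signals were 9.79, 9.23 and 9.27 with abemaciclib 120 and 7.31, 7.76 and 8.74 with abemaciclib 36. They were 8.48, 6.24 and 6.59 with ribociclib 300, 7.17, 7.55 and 7.42 with palbociclib 100, 6.72, 7.25 and 7.37 with palbociclib 30, and 7.40, 7.99 and 7.47 in vehicle. The 3 abemaciclib 120 arrays were the highest of the study, the 3 palbociclib 30 arrays lay just below all vehicle arrays, and ribociclib 300 held both the lowest arrays of the study and, in replicate A, one above all vehicle arrays. Cdk4 averaged 9.43 ± 0.31 with abemaciclib 120 and 7.62 ± 0.32 in vehicle (SD, n = 3 each), a log2 difference of 1.81 (SE 0.46, 3.51-fold higher, limma adjusted p = 0.0115). This call ended with the actin covariate (1.66, adjusted p = 0.0636) and without abemaciclib 120 replicate A (1.63, adjusted p = 0.0619). With ribociclib 300 Cdk4 differed from vehicle by -0.51 (95% interval -1.48 to 0.46, adjusted p = 0.547). It passed in 1 of the 6 fits that left out 1 array, that without ribociclib 300 replicate A (-1.20, adjusted p = 0.0433), and was -0.08 (adjusted p = 0.955) without ribociclib 300 replicate B.

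Cdk6, the sister kinase of Cdk4, read between 4.04 and 4.45 on all 18 arrays, below the median of every array. Its group means ran from 4.18 ± 0.18 with palbociclib 100 to 4.31 ± 0.09 in vehicle, and every group overlapped with every other. Its difference from vehicle with abemaciclib 120 was -0.05 (95% interval -0.29 to 0.18, adjusted p = 0.806), and those of the other groups lay between -0.13 and -0.01. Detection calls were not used, so it is not known whether this probe set lay above background, and its narrow intervals need not apply to the transcript.

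Rb1, the retinoblastoma protein gene, moved the other way. It read 8.83, 8.89 and 8.65 with abemaciclib 120 and 9.30, 9.35 and 9.14 with abemaciclib 36. It read 9.15, 9.07 and 8.70 with ribociclib 300, 9.32, 9.50 and 9.26 with palbociclib 100, 9.37, 9.42 and 9.23 with palbociclib 30, and 9.74, 9.17 and 9.13 in vehicle. The 3 abemaciclib 120 arrays lay below all vehicle arrays, and so did ribociclib 300 replicates B and C, while vehicle replicate A was the highest array of the study. Rb1 averaged 8.79 ± 0.13 with abemaciclib 120 and 9.35 ± 0.34 in vehicle (SD, n = 3 each), a log2 difference of -0.55 (SE 0.18, 1.47-fold lower, limma adjusted p = 0.0477). That call was lost when any 1 of the 6 arrays was left out (adjusted p 0.0543 to 0.234, the highest without vehicle replicate A, where the difference was -0.36) and with the actin covariate (adjusted p = 0.222). It was also lost with every probe set tested on its own (adjusted p = 0.072) and in a fit restricted to both groups (adjusted p = 0.105). With ribociclib 300 the difference was -0.37 (95% interval -0.76 to 0.02, adjusted p = 0.272).

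Rbl1 encodes p107, a pocket protein whose own transcription is known to follow E2F and which is made mainly in dividing cells. It read 8.29, 8.07 and 8.08 with abemaciclib 120 and 7.23, 7.33 and 7.46 with abemaciclib 36. It read 7.0, 6.56 and 7.06 with ribociclib 300, 7.20, 7.51 and 7.35 with palbociclib 100, 7.28, 7.40 and 7.79 with palbociclib 30, and 7.69, 7.89 and 7.61 in vehicle. Every abemaciclib 120 array lay above, and every abemaciclib 36, ribociclib 300 and palbociclib 100 array below, all 3 vehicle arrays; palbociclib 30 overlapped with vehicle. With ribociclib 300 Rbl1 averaged 6.87 ± 0.27, against 7.73 ± 0.14 in vehicle (SD, n = 3 each), a log2 difference of -0.86 (SE 0.19, 1.82-fold lower, limma adjusted p = 0.0203). This call held in 2 of 6 fits that left out 1 array, those without ribociclib 300 replicate A and without replicate C, and reached an adjusted p of 0.112 without vehicle replicate B, 0.0577 without vehicle replicate A, 0.062 without vehicle replicate C and 0.0572 without ribociclib 300 replicate B. In a fit restricted to both groups the adjusted p was 0.135. With abemaciclib 120 it averaged 8.15 ± 0.13 (SD, n = 3), 0.41 above vehicle (95% interval 0.02 to 0.81, adjusted p = 0.151). The differences were -0.40 with abemaciclib 36, -0.38 with palbociclib 100 and -0.24 with palbociclib 30, none of which passed. The E2F word in its promoter, shown above, stands beside these values with no test that links them.

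Rbl2 encodes p130, the pocket protein that prevails in resting cells. It read 7.95, 8.28 and 7.61 with abemaciclib 120 and 7.87, 8.20 and 8.07 with abemaciclib 36. It read 8.09, 7.83 and 8.26 with ribociclib 300, 8.35, 8.23 and 8.23 with palbociclib 100, 8.48, 8.36 and 8.61 with palbociclib 30, and 8.39, 8.43 and 8.39 in vehicle. The vehicle arrays spanned 8.39 to 8.43, and all arrays of 4 treated groups, all but palbociclib 30, lay below them. The shares of all genes without overlap with vehicle are given with the counts below. None of the differences passed: they were -0.46 with abemaciclib 120 (95% interval -0.85 to -0.06, adjusted p = 0.103), -0.36 with abemaciclib 36, -0.34 with ribociclib 300, -0.13 with palbociclib 100 and 0.08 with palbociclib 30. The first of these passed in 1 of the 6 fits that left out 1 array, that without abemaciclib 120 replicate B (-0.62, adjusted p = 0.0361), and was -0.29 (adjusted p = 0.359) without abemaciclib 120 replicate C.

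Counted together, 4 of the 8 genes were called with abemaciclib 120 against vehicle, 3 higher and 1 lower, where 18% of all genes were called. The arrays of 6 of the 8 did not overlap with vehicle, against 37.3% of all genes. The median log2 difference of the members was 0.51 and that of all genes -0.02. Without abemaciclib 120 replicate A, and with the actin covariate, 2 members (Ccnd1 and Ccnd2) were called, fits in which the share of all genes was not counted. With ribociclib 300, 1 of 8 was called, against 3.73% of all genes, and the median was -0.29. With abemaciclib 36 the count was 0 of 8 in limma, against 2.08% of all genes. It was also 0 of 8 with palbociclib 100 and with palbociclib 30, where 0% of all genes passed. In these 3 comparisons 0 of 8 members had an unadjusted p below 0.05, as did 1960 genes (13.8%) with abemaciclib 36, 1023 (7.2%) with palbociclib 100 and 357 (2.51%) with palbociclib 30. In limma's F test over the 6 groups, Ccnd2 (adjusted p = 0.00189), Rbl1 (0.00308), Cdk4 (0.0101) and Ccnd1 (0.0188) passed, and Ccnd3 (0.0633), Rb1 (0.095), Rbl2 (0.15) and Cdk6 (0.913) did not; 22.6% of all genes passed. Without abemaciclib 120 replicate A 2 members passed the F test. The comparisons with vehicle share the same 3 vehicle arrays. In each treated group other than abemaciclib 120, the arrays of 2 of 8 members did not overlap with vehicle. The shares of all genes were 20.3% with abemaciclib 36, 24.4% with ribociclib 300, 19% with palbociclib 100 and 11.2% with palbociclib 30.

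**Figure D2:**
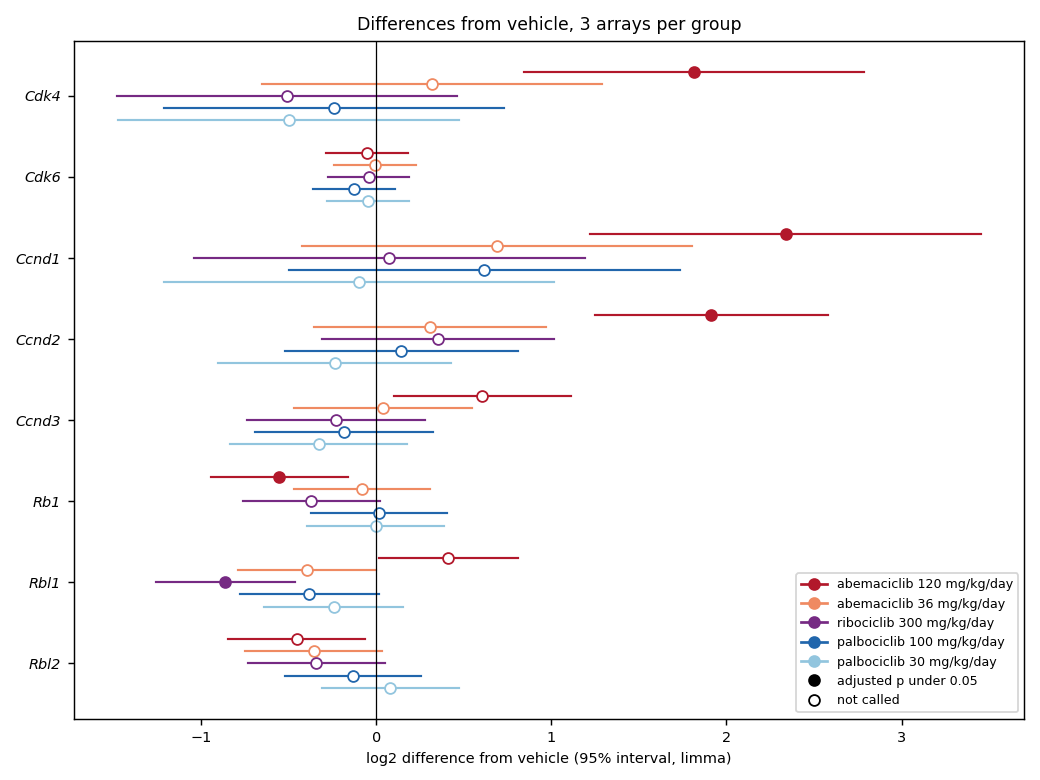
Log2 difference from vehicle of each gene (horizontal axis) in the 5 treated groups (colours), with 95% intervals from limma and filled points where the adjusted p was below 0.05. The filled points are Cdk4, Ccnd1, Ccnd2 and Rb1 with abemaciclib 120 and Rbl1 with ribociclib 300.

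The abemaciclib doses were compared directly, without a difference in carrier. Ccnd2 was higher with abemaciclib 120 than with abemaciclib 36 by 1.61 (SE 0.31, 3.04-fold, limma adjusted p = 0.00554) and Rbl1 by 0.81 (SE 0.19, 1.75-fold, adjusted p = 0.0146). These were 2 of 8 members, where 7.59% of all genes were called. Cdk4 (1.49, 95% interval 0.52 to 2.47, adjusted p = 0.0578) and Ccnd1 (1.65, 95% interval 0.53 to 2.77, adjusted p = 0.0685) did not pass, though no abemaciclib 36 array reached the lowest abemaciclib 120 array. Abemaciclib 36 replicate C came nearest, at 8.74 for Cdk4 and 8.46 for Ccnd1. Its crypt marker mean was 6.93, against 6.14 and 6.24 on its group mates. Without that array both genes passed (Cdk4 1.90, adjusted p = 0.0202; Ccnd1 2.01, adjusted p = 0.0378) and 4 members were called, whereas 1 was called without abemaciclib 36 replicate A or abemaciclib 120 replicate A. With the actin covariate neither Ccnd2 (adjusted p = 0.0649) nor Rbl1 (adjusted p = 0.143) passed, and with only these 6 arrays in the fit 0 members did. The palbociclib doses differed for 0 of 8 members in limma (0% of all genes, and 619 genes, or 4.35%, at an unadjusted p below 0.05, none a member); the widest difference was that of Ccnd1, 0.72 (95% interval -0.40 to 1.83).

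Both drugs were given at doses 3.33 times apart, so the dose differences could be set against each other. The dose difference of Rbl1 was 0.81 for abemaciclib and -0.14 for palbociclib, which differ by 0.95 (95% interval 0.38 to 1.51, limma adjusted p = 0.125). Those of Ccnd2 were 1.61 for abemaciclib and 0.38 for palbociclib, which differ by 1.23 (95% interval 0.28 to 2.17, adjusted p = 0.234). None of the 8 members passed this test, which was added after the data were seen and called 0.352% of all genes.

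The groups of different compounds are given side by side with the limit that their doses in mg/kg/day differ and exposures are not known from the labels. All 15 pairs of groups were taken from the same fit, each with its p adjusted over all genes. Abemaciclib 120 and ribociclib 300 shared a carrier, and 5 of 8 members were higher with abemaciclib 120, where 27.2% of all genes were called. Cdk4 was higher with abemaciclib 120 than with ribociclib 300 by 2.32 (SE 0.46, 5.0-fold, adjusted p = 0.00229), Ccnd1 by 2.27 (adjusted p = 0.00557), Ccnd2 by 1.56 (adjusted p = 0.00248), Ccnd3 by 0.84 (adjusted p = 0.0177) and Rbl1 by 1.27 (SE 0.19, 2.42-fold, adjusted p = 0.000465). Of these, Cdk4, Ccnd1, Ccnd2 and Rbl1 passed in every fit that left out 1 of the 6 arrays and Ccnd3 in 3 of the 6; Ccnd3 was also lost after quantile re-normalization (adjusted p = 0.0829). The actin covariate left 2 members called, and Ccnd1 (adjusted p = 0.0615), Ccnd2 (adjusted p = 0.0712) and Ccnd3 (adjusted p = 0.179) were not.

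Against palbociclib 100, abemaciclib 120 had 6 of 8 members called (18.3% of all genes): Cdk4 was higher by 2.05, Ccnd2 by 1.77, Ccnd1 by 1.72, Ccnd3 and Rbl1 by 0.79 each, and Rb1 differed by -0.57. With the actin covariate 1 of these remained past the threshold, and Rbl1 differed by 0.48 (adjusted p = 0.154). Members called numbered 3 without abemaciclib 120 replicate A or without any one of the palbociclib 100 arrays. Ccnd3 was also lost after quantile re-normalization (adjusted p = 0.0741), after median centring (adjusted p = 0.0548) and in a fit restricted to both groups (adjusted p = 0.071). Rb1 was lost with every probe set tested on its own (adjusted p = 0.0649) and in the restricted fit (adjusted p = 0.0685). Against palbociclib 30, 7 of 8 were called (22.5% of all genes), the same 6 and Rbl2 (-0.54, adjusted p = 0.0472). Ribociclib 300 and palbociclib 100, the pair that shares the cyclopentyl group, differed for 0 of 8 members in limma (0.823% of all genes), and Rbl1 alone had an unadjusted p below 0.05, as had 14.8% of all genes (-0.48, 95% interval -0.88 to -0.08, adjusted p = 0.234). For Cdk4 that pair differed by -0.27 (95% interval -1.24 to 0.70) and for Ccnd1 by -0.54 (95% interval -1.66 to 0.57), intervals that reach beyond 2-fold lower with ribociclib 300. The count was also 0 of 8 between abemaciclib 36, which lacks the cyclopentyl group, and ribociclib 300 (0.38% of all genes called). It was 0 of 8 for abemaciclib 36 against palbociclib 100 (0.359%) and against palbociclib 30 (1.24%) as well.

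Ordered by group mean, abemaciclib 120 came first for Cdk4, Ccnd1, Ccnd2, Ccnd3 and Rbl1 and last for Rb1 and Rbl2. Of the neighbours in these orders, a single pair differed beyond the test: abemaciclib 120 and ribociclib 300 for Ccnd2, with the difference of 1.56 given above. For Rbl1 the order ran abemaciclib 120 (8.15), vehicle (7.73), palbociclib 30 (7.49), palbociclib 100 (7.35), abemaciclib 36 (7.34) and ribociclib 300 (6.87), and no step between neighbours passed. For Rbl2 it ran palbociclib 30 (8.48), vehicle (8.40), palbociclib 100 (8.27), ribociclib 300 (8.06), abemaciclib 36 (8.05) and abemaciclib 120 (7.95), again with no step that passed.

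Some of the members also varied together from array to array. These correlations are descriptions over arrays that share their normalisation, with the abemaciclib 120 arrays apart from the others, so each is given with and without those arrays. Cdk4 and Ccnd1 had r = 0.92 (Spearman's rho 0.87) over 18 arrays, r = 0.81 over the 15 arrays outside abemaciclib 120, and r = 0.85 for deviations from the group means. Cdk4 and Ccnd3 had r = 0.88 over 18 arrays and r = 0.82 without abemaciclib 120. Cdk4 and Ccnd2 had r = 0.85 over 18 arrays and r = 0.53 without abemaciclib 120. Cdk4 and Rbl1 had r = 0.75 over 18 arrays and r = 0.43 without abemaciclib 120, where ribociclib 300 replicate A combined a high Cdk4 signal with a low Rbl1 signal. Rb1 and Cdk4 had r = -0.44 over 18 arrays and r = 0.13 without abemaciclib 120, so their opposite course rests on those 3 arrays. Rbl1 and Rbl2 had r = 0.06 over 18 arrays and r = 0.71 over the 15 without abemaciclib 120. Cdk6 had r between -0.21 (Rb1) and 0.13 (Ccnd3) with the other members over 18 arrays. Without abemaciclib 120 its values lay between -0.32 (Rb1) and 0.41 (Ccnd3). Genes outside the family reached higher r with Cdk4 than any member did, as given below. The share of all genes with such correlations was not computed.

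**Figure D3:**
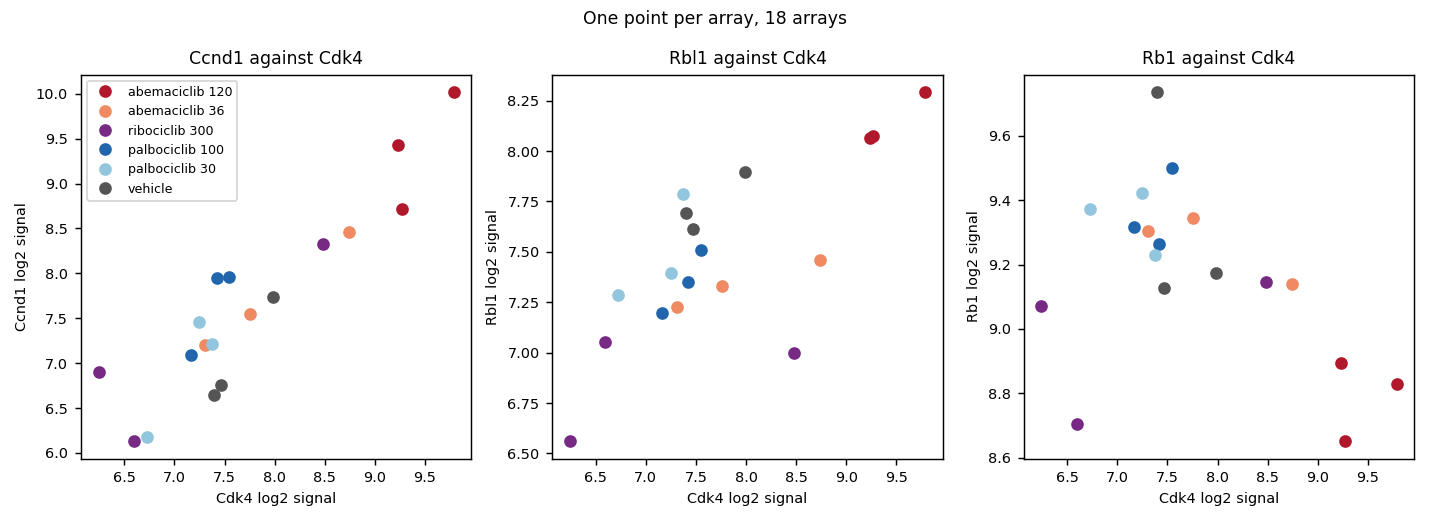
Log2 signal of Ccnd1 (left), Rbl1 (middle) and Rb1 (right) against that of Cdk4, with 1 point per array coloured by group. Ccnd1 and Cdk4 had r = 0.92 over 18 arrays and r = 0.81 without abemaciclib 120. The relation of Rb1 to Cdk4 (r = -0.44 over 18 arrays) came from the 3 abemaciclib 120 arrays.

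For each member the 3 genes outside the family with the highest Pearson correlation over the 18 arrays were named. Symbols that start with LOC, RGD, Mir or Snor were left out of this ranking. Cdk4 was closest to Setsip (0.98), Dut (0.98) and Prpf19 (0.98), which stayed at 0.96, 0.96 and 0.94 over the 15 arrays without abemaciclib 120. Ccnd1 was closest to Lrig1 (0.96), Ints9 (0.96) and Cenpf (0.95). Ccnd2 was closest to Rrp15 (0.96), Palb2 (0.95) and Kif22 (0.95), and for these r was 0.81, 0.79 and 0.77 without abemaciclib 120. Ccnd3 was closest to Nt5c3b (0.96), Pygb (0.95) and Gemin8 (0.94). Rb1 was closest to Bltp1 (0.94), Xdh (0.89) and Pcnx1 (0.88), Rbl1 to Xpo7 (0.95), Gemin2 (0.94) and Aggf1 (0.94), and Rbl2 to Calcoco1 (0.88), Zmat3 (0.88) and Tgfbr1 (0.87). For Cdk6, whose signal lay below the array medians, the values were lower: Acox2 (0.82), Plg (0.81) and Hbz (0.79).

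The neighbours of these genes in the pathway were counted from lists, for abemaciclib 120 against vehicle, where 9.6% of all genes rose and 8.41% fell. Of 7 inhibitors of cyclin-dependent kinases, 0 rose and 3 fell, with a median difference of -0.72. Cdkn2d, which encodes the INK4 protein p19 that blocks CDK4 and CDK6, read 6.53, 6.54 and 6.72 with abemaciclib 120 and 8.23, 8.28 and 8.38 in vehicle (-1.70, SE 0.26, 3.25-fold lower, adjusted p = 0.000406). Cdkn1c (p57) was 10.1-fold lower (adjusted p = 0.00106) and Cdkn1b (p27) 2.09-fold lower (adjusted p = 0.0154), both proteins that bind cyclin and kinase together. The 3 genes lay lower while Cdk4, Ccnd1 and Ccnd2 lay higher, but lower signals were not particular to this group. Cdkn2d averaged 6.36 with abemaciclib 36, against 6.59 with abemaciclib 120 and 8.30 in vehicle. It also fell with ribociclib 300 (-1.50, limma adjusted p = 0.00687), where Cdkn1b (adjusted p = 0.134) and Cdkn1c (adjusted p = 0.169) did not pass. Cdkn1b averaged 9.62 with abemaciclib 36, 9.95 with abemaciclib 120 and 11.02 in vehicle. No member rose with abemaciclib 36 or ribociclib 300.

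Downstream of the pocket proteins, 7 of 13 measured genes for cyclin E, CDK2, CDC25A and the E2F and DP factors rose and 1 fell (median 0.51). Cdk2, the kinase that takes over from CDK4 and CDK6 late in G1, rose 4.49-fold, the E2F family repressor E2f8 4.43-fold and cyclin E1 (Ccne1) 3.85-fold, while Tfdp2, a DNA-binding partner of E2F proteins, fell 4.31-fold. Their differences were 2.17, 2.15, 1.95 and -2.11, with SE of 0.22 to 0.29. Without abemaciclib 120 replicate A, 5 of the 13 were called. The next list held genes of the MuvB core, which forms complexes with p107 and p130, and the B-MYB gene Mybl2. Of its 5 measured genes, Lin9 (1.90-fold, adjusted p = 0.0137) and Mybl2 (1.83-fold, adjusted p = 0.018) rose and 0 fell. The median of the 5 was -0.36, a sign opposite to that of the called genes. Both calls were lost without abemaciclib 120 replicate A and with the actin covariate, and 1 remained without vehicle replicate A or C.

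Of 16 measured E2F target genes of DNA replication, 14 rose and 0 fell, with a median of 1.98. Thymidine kinase (Tk1) rose 5.49-fold, thymidylate synthase (Tyms) 5.14-fold, the DNA polymerase subunit Pola1 4.00-fold and the replicative helicase subunit Mcm2 3.58-fold. With ribociclib 300 0 of the 16 were called, with a median of -0.31. The group in which Ccnd1, Ccnd2 and Cdk4 rose was also one in which replication genes and crypt markers rose, and the part of more dividing cells in these values was not tested. Of 11 genes that load, fold or turn over the kinases and cyclins, 1 rose, the chaperone Hsp90ab1 (2.85-fold, adjusted p = 0.0106), and it was lost without abemaciclib 120 replicate A or vehicle replicate C. Of 11 genes listed for the induction of D cyclin transcription, 3 rose and 0 fell (median -0.18): Myc (6.25-fold, adjusted p = 0.00145), the growth factor response factor Egr1 (6.20-fold, adjusted p = 0.00704) and Axin2 (3.29-fold, adjusted p = 0.00274). Axin2 is a Wnt target and a feedback inhibitor of Wnt signalling, not itself an inducer of D cyclins. Egr1 also rose with ribociclib 300 (5.35-fold, limma adjusted p = 0.0403), where Myc (adjusted p = 0.792) and Axin2 (adjusted p = 0.730) did not pass. Axin2 averaged 8.02 with abemaciclib 36, against 8.11 with abemaciclib 120 and 6.39 in vehicle. No D cyclin passed against vehicle with abemaciclib 36 or ribociclib 300. Myc read 8.62, 7.76 and 7.14 with abemaciclib 120 and 4.96, 5.78 and 4.85 in vehicle. Some of the vehicle signals of these genes, such as those of Myc and E2f8, lay near or below the array medians, so their folds start from signals that may be background.

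**Figure D4:**
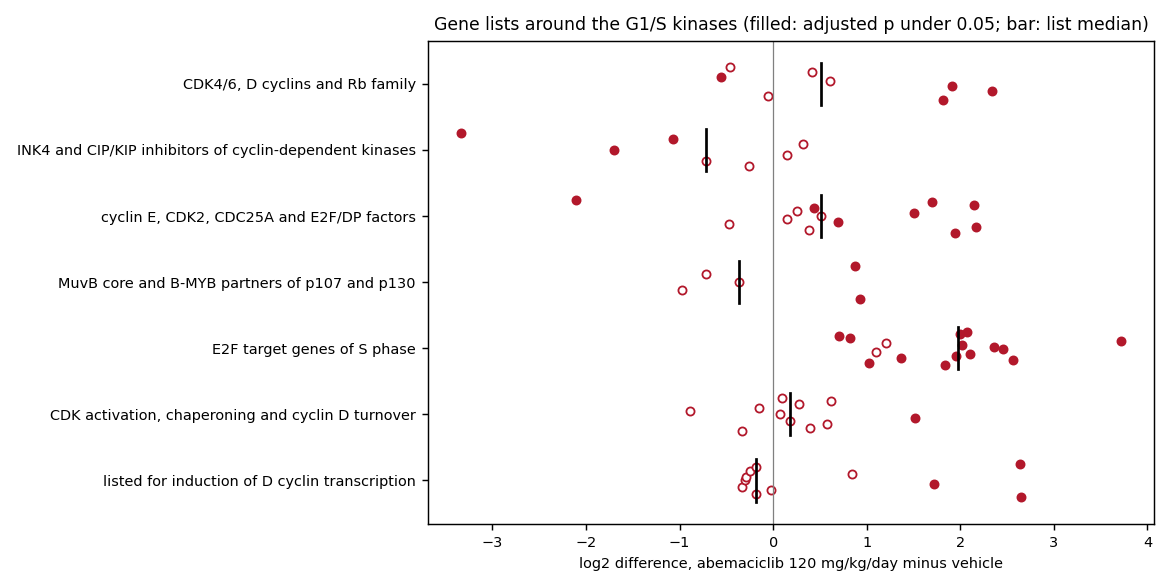
Log2 difference of each gene (points) between abemaciclib 120 and vehicle (horizontal axis) for the 8 members and 6 lists of the pathway, filled where the adjusted p was below 0.05, with the median of each list as a bar. The medians run from -0.72 for the kinase inhibitors to 1.98 for the E2F targets.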

How the data were processed

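The deposited log2 values, 1 per probe set and array, were made with RMA in Affymetrix software (Expression Console, Transcriptome Analysis Console), per the submitters' processing notes, which give no versions. RMA equalises signal distributions between arrays, so a change in total RNA per cell is not visible. No genome was used, and folds computed here are powers of 2.

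Of 31099 probe sets, 57 controls were left out. Of the rest 20826 had 1 symbol, 436 had several and 9780 were unnamed in the annotation table, and Entrez identifiers of 20758 matched the RefSeq gene table. Each gene was represented by its probe set with the highest mean (14217 genes). limma 3.58.1 in R 4.3.3 (1 mean per group, all 18 arrays, eBayes with trend) gave two-sided p-values adjusted by Benjamini and Hochberg over all genes, with a threshold of 0.05. The fit was first tested on simulated data. With 3 arrays a group the smallest p of an exact permutation test is 0.1, and the number of arrays limits the precision. No pair of arrays was identical (r between 0.918 and 0.993). Other steps used Python 3.11.15.

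The members and lists were chosen with earlier results of these data known. Beside the members, the genes named are up to 4 called genes of a list with the smallest p and the 3 most correlated with each member. The correlated genes were ranked with the members and symbols that start with LOC, RGD, Mir or Snor left out. Alternatives were quantile re-normalization, median centring, a filter at the 30th percentile, the mean of a gene's probe sets, every probe set on its own, a fit restricted to the compared groups, eBayes without trend, a minimum fold of 1.5, a replicate block, an actin RNA quality covariate and leaving out each array. The direct contrasts of abemaciclib 120 with ribociclib 300 and palbociclib 100, the list counts and the dose interaction were given alternatives after the data were seen. Replicate letters were not treated as pairs in the main fits. Deviations of arrays with the same letter correlated at a median of 0.05 (19 of 45 pairs over 0.1, highest 0.59). Those of arrays with different letters correlated at a median of -0.04 (27 of 90 pairs over 0.1, highest 0.43). The number of arrays closest to their own letter in every other group was 0. Whether the letters stand for a weak pairing was not tested.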

Additional observations from a re-analysis of the deposited data

Results flagged for a closer look

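Rbl1 lay on opposite sides of all vehicle arrays in different treated groups, above them on the 3 abemaciclib 120 arrays and below them on the 3 arrays each of abemaciclib 36, ribociclib 300 and palbociclib 100. The direct difference between abemaciclib 120 and abemaciclib 36 was 0.81 (limma adjusted p = 0.0146), that between abemaciclib 120 and ribociclib 300 was 1.27 (limma adjusted p = 0.000465), and that between abemaciclib 120 and palbociclib 100 was 0.79 (limma adjusted p = 0.00805). With the actin covariate the first was 0.54 (adjusted p = 0.143) and the last 0.48 (adjusted p = 0.154), neither of which passed. Cdk4 lay above all vehicle arrays with abemaciclib 120 and below all of them with palbociclib 30, with a direct difference of 2.31 (limma adjusted p = 0.00186). The gap between palbociclib 30 and vehicle was narrow, with a highest palbociclib 30 array of 7.37 and a lowest vehicle array of 7.40, and their difference did not pass (-0.50, limma adjusted p = 0.998). All of these use the same vehicle arrays to define the sides, and no array stood out of its group by a test, since groups of 3 are not tested. Lack of overlap with vehicle, in either direction, was common: 37.3% of all genes with abemaciclib 120 and 20.3% with abemaciclib 36. It was 24.4% with ribociclib 300, 19% with palbociclib 100 and 11.2% with palbociclib 30.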

How the results depend on the processing

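Over the 9 comparisons of the members given alternatives, 1143 single-gene values were recomputed. Of these 1078 kept their side of the threshold, 58 lost it and 7 gained it, none of the called values changed sign, and 46 values that were not called did. With the RNA quality covariate the members called numbered 2 for abemaciclib 120 against vehicle, 0 against abemaciclib 36, 2 against ribociclib 300, 1 against palbociclib 100 and 2 in the F test, and 0 genes of the MuvB list were called. In a fit restricted to the compared groups, the count was 0 for ribociclib 300 against vehicle and 0 for abemaciclib 120 against abemaciclib 36, where fewer arrays set the spread. Leaving out each array in turn gave 2 to 5 members for abemaciclib 120 against vehicle, 0 to 2 for ribociclib 300 against vehicle, 1 to 4 for abemaciclib 120 against abemaciclib 36, 4 to 5 against ribociclib 300, 3 to 4 against palbociclib 100 and 2 to 5 in the F test. It gave 2 to 3 called genes of the kinase inhibitor list, 5 to 8 of the cyclin E and E2F list, 0 to 2 of the MuvB list, 11 to 15 of the E2F target list, 0 to 1 of the activation list and 2 to 3 of the inducer list. With a replicate block, 4 members were called for abemaciclib 120 against vehicle and 5 in the F test. The share of all genes called was not counted in any of these fits. A loss of calls among the members therefore cannot be told apart from a loss over all genes. Other causes were not tested. Depth has no count on arrays, and Cdk6 lay below the array medians throughout.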
